A study of Mus musculus with 12 samples.

Results

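The comparison described here sets macrophages given palmitic acid alone against untreated macrophages, and it rests on 6 of the 12 arrays of the series. The cells were RAW264.7, a mouse line with macrophage properties raised from a virus-induced tumour. The palmitic acid group received 0.2 mM of this saturated fatty acid and no FABP4, and the control group received neither. Both groups were kept for 24 h in medium with 0.5% albumin free of fatty acids, and each has 3 arrays. The other 6 arrays carry 200 nM recombinant FABP4, a fatty acid binding protein of fat cells and macrophages, without or with the same dose of palmitic acid, again with 3 arrays each. Members were chosen by the treatment labels only, and no measured value entered the choice. Whether the 3 RNA samples of a group are from different cultures is not stated in the labels, and the p-values therefore reflect just the spread among these samples, which may be technical.

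A cell that takes up more palmitic acid than it burns stores it as triglyceride in lipid droplets, oxidises it in mitochondria after transfer to carnitine, or builds it into membrane lipids and sphingolipids. Fatty acids also act as ligands of the nuclear receptors of the PPAR family, which switch on genes of fat storage and oxidation. In macrophages, cholesterol export through ABCA1 and ABCG1 and fatty acid synthesis are both driven in part by the nuclear receptor LXR, and an excess of saturated fatty acid is known to strain the endoplasmic reticulum.

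RNA was measured on 1-colour Agilent arrays, 1 per sample. Each array held 59305 non-control spots, of which 42.8% to 46.7% were well above background and 0 were saturated. Values are scaled intensities, that is, processed spot intensities after each array's 75th percentile was set to the same 273.4 units, and 17662 genes were tested. The precision is limited by the number of arrays, and a log2 fold change had a median SE of 0.08. The 3 control arrays lay on slide 1 and the 3 palmitic acid arrays on slide 2. No slide holds both groups, so that treatment and slide cannot be told apart within these 6 arrays. Only the FABP4 group spans both slides, with array 1 on slide 1 and arrays 2 and 3 on slide 2. Therefore 3 further values are given beside the main one, for gene lists and for some of the genes named. The first is the palmitic acid effect in a fit with slide as a fixed block, whose slide term comes from the FABP4 group alone. The second is the difference between the 3 arrays with palmitic acid and FABP4 and FABP4 arrays 2 and 3, all on slide 2. It shares no array with the main comparison, although there the groups lie in different rows of the slide, so that palmitic acid and row cannot be told apart. The third is the slide difference itself in the FABP4 group, which has no test of its own. On 5 bright spike-in probes the palmitic acid arrays differed on average from the controls by -0.05 on the log2 scale. Relative to the 75th percentile, single arrays read 6.4 to 6.53 in controls and 6.3 to 6.54 with palmitic acid. In the FABP4 group these probes read 6.53 on slide 1 and on average 6.3 on slide 2.

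The labelled cell type was checked against its markers. Of 16 macrophage markers on the array 15 were well above background on all 3 arrays of every group, and their summed intensity was 403000 to 415000 in controls and 413000 to 427000 with palmitic acid. Among markers of other cells, 2 of 7 for adipocytes, 1 of 8 for fibroblasts, 3 of 9 for neutrophils, 3 of 10 for T and B cells, 6 of 11 for dendritic cells and 1 of 7 for mast cells and basophils were detected on all control arrays, and the same numbers on all palmitic acid arrays. The fibroblast sum was 91.9 to 105 in controls and 110 to 486 with palmitic acid, and the adipocyte sum was 399 to 457 and 324 to 371. The part of either in the results was not tested. As these are bulk samples, fewer cells of a kind and less RNA per cell cannot be told apart.

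Between the palmitic acid and the control arrays 1516 of the 17662 genes (8.58%) differed by limma, where a gene counts as called when its Benjamini-Hochberg adjusted p is under 0.05. Of these, 858 were higher (4.86% of the genes tested) and 658 were lower (3.73%). With slide as a fixed block 137 genes passed (0.776%), of which 77 were among the 1516. Most calls were small: 212 were at or under 0.25 on the log2 scale, 827 lay between 0.25 and 0.5, 405 between 0.5 and 1, and 72 above 1. With unscaled arrays 2950 genes were called higher and 110 lower, and the median log2 value of all genes shifted by 0.17, so every change is relative to the 75th percentile of its array. The values of the 2 groups did not overlap in 5980 genes (33.9%). The count was 652 without control array 1, 669 without control array 3, 930, 718 and 904 without palmitic acid arrays 1, 2 and 3, and 2716 without FABP4 array 1. Of 204 called genes that are named here, belong to a gene list or were called in every fit, 117 passed whichever array was left out and 70 passed with slide as a fixed block. The 70 follow largely from the choice, as genes called in every fit had to pass that block. Among all 1516 calls 77 passed it.

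The clearest rises were in a muscle receptor adaptor, a latent TGF-beta carrier and 3 genes of fatty acid storage and oxidation. Their probes lie at these places in the mm9 build, and the first 30 of 60 bases are printed for the few that lead the rises and falls, so that the measured transcript can be traced.

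Dok7, chr5:35423495-35423554, plus strand: cttacctgtaaatgcctcggtctgtacctg
Lrrc32, chr7:105650282-105650341, plus strand: ccctgggacccgctctttgtataactcaca
Plin2, chr4:86302847-86302906, minus strand: ctggccagatgaccccttttgctgtattga
Cpt1a, chr19:3385374-3385433, plus strand: tcttaggactacttgctaacctctgttact
Sphk1, chr11:116397908-116397967, plus strand: ttgcatatagaagacactccccattgctct
Pilra, chr5:138264617-138264676, minus strand: agtcacctttgtttctagtaggaagactct

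Dok7 encodes an adaptor that activates the muscle receptor kinase MuSK, and its scaled intensity was 239.1, 231.1 and 251.6 in controls and 863.3, 869.7 and 827.3 with palmitic acid. The groups lie far apart, a 3.55-fold rise (log2 1.83 ± 0.07 SE, n = 3 arrays per group, limma adjusted p = 6.39e-07). Lrrc32 encodes GARP, a surface protein that holds latent TGF-beta, and it went from 61.8, 81.08 and 79.35 to 197, 201.3 and 239, a 2.88-fold rise (1.52 ± 0.12, adjusted p = 1.57e-04). The lowest palmitic acid array was more than double the highest control, and the FABP4 arrays of slide 2, at 71.92 and 75.27, lay among the controls. FABP4 array 1, on slide 1, read 60.89. The slide difference of Lrrc32 was 0.27, and its rise was 1.25 with slide as a block. Gm13889, a gene whose function is little known, was at 112.9, 139.7 and 124.6 in controls and 349.4, 312.9 and 372 with palmitic acid (1.46 ± 0.10, adjusted p = 1.34e-04).

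Plin2 encodes the main coat protein of lipid droplets in macrophages, and Hilpda a droplet protein that inhibits the triglyceride lipase ATGL. Plin2 rose from 32250, 33760 and 35850 to 88530, 89490 and 95200, and Hilpda from 6697, 6560 and 7352 to 18170, 18620 and 18900, with no overlap in either gene. Cpt1a, whose enzyme starts the carnitine shuttle, went from 341, 375.4 and 388.8 to 937, 973.3 and 946.1. These 3 rises were 2.68-fold, 2.7-fold and 2.59-fold (1.42 ± 0.06, 1.44 ± 0.05 and 1.37 ± 0.06). Of 19 tested lipid droplet and triglyceride genes Plin2 and Hilpda were called (10.5%, near the 8.58% over all genes). The other 17 were not called. They include the synthesis enzymes Dgat1 at -0.05 and Dgat2 at -0.11, the lipase Pnpla2 at -0.01 and the droplet protein Plin3 at 0.10. Fatty acid oxidation and its PPAR control were covered by 25 tested genes. Cpt1a and the receptor gene Pparg (0.26 ± 0.06, limma adjusted p = 0.0327) were called higher, a share of 8% against 8.58% over all genes. The other 23 were not called. Slc25a20, the carrier that brings acylcarnitine into the mitochondrion, had 0.60 ± 0.17 (adjusted p = 0.0515) beside a slide difference of 0.61, and the beta-oxidation enzymes Acadm, Acadvl, Hadha and Hadhb lay between -0.05 and -0.01. The call of Pparg ended without each control array and without palmitic acid arrays 2 and 3, at most at adjusted p = 0.104.

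**Figure D1:**
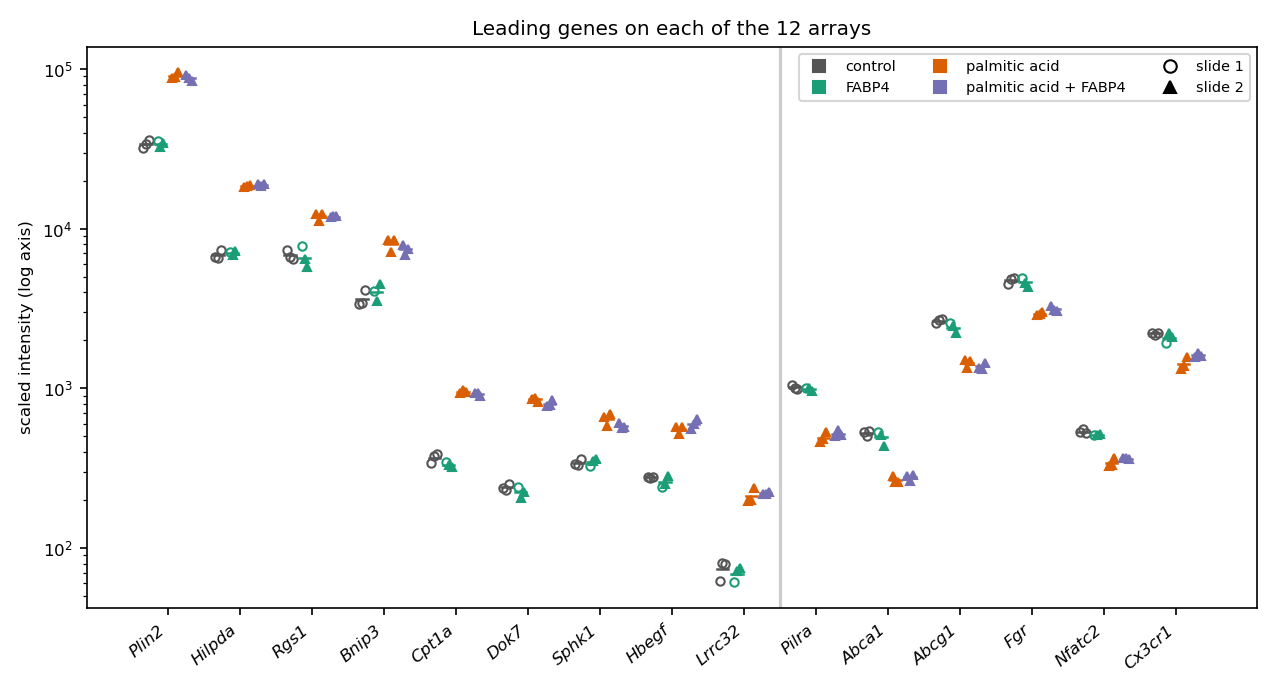
Scaled intensity on a log axis for 9 genes that were higher and 6 that were lower with palmitic acid, with 1 point per array and a line at each group's mean of log2 values; colours give the 4 groups, open circles slide 1 and filled triangles slide 2. In each of the 15 genes the palmitic acid arrays lie apart from the controls, and the FABP4 arrays of both slides lie nearer to the controls than to the palmitic acid arrays.

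The clearest falls were in a pair of lipid exporters and in receptors and kinases of myeloid cells. Pilra encodes an inhibitory receptor with a phosphatase-binding tail, and it fell from 1044, 1007 and 994.4 to 459.3, 482.9 and 533.5 (log2 -1.05 ± 0.06, adjusted p = 3.31e-05). Of its 3 other probes, 2 gave -0.96 and -1.10 and 1 gave 0.17 ± 0.20. Abca1 went from 534.7, 502.3 and 542.9 to 283.8, 258 and 260, and Abcg1 from 2562, 2664 and 2714 to 1508, 1343 and 1487, which are falls of 1.97-fold and 1.83-fold with no overlap. The rest of the LXR and efflux list did not fall with them as a group. Of its 16 tested genes 3 were called lower, 0 higher and 13 not at all (18.8% called, all genes 8.58%). The list's median was -0.03, and 6 of its genes lay above 0. Within slide 2 the median was 0.05, with 1 called higher and 2 lower. Fgr, a Src-family kinase of myeloid cells, fell from 4529, 4855 and 4889 to 2866, 2926 and 3010 (-0.70 ± 0.06, adjusted p = 2.21e-04). Nfatc2, a calcium-regulated transcription factor, fell from 531.2, 554.4 and 522.5 to 326, 330.9 and 367.1 (-0.65 ± 0.05, adjusted p = 1.58e-04). In Pilra, Abca1, Abcg1, Fgr and Nfatc2 no palmitic acid array reached the lowest control.

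Among hypoxia-response genes a share above that of all genes was higher with palmitic acid. Cells induce them through HIF transcription factors when oxygen is low, and they serve glycolysis, vessel growth and the removal of mitochondria. The gene lists were chosen with earlier results of these data known, and 30 of the 43 lists exceeded the share called over all genes. Of 859 different list members tested 140 (16.3%) were called, against 8.58% of all genes, so such an excess is a description. Of 25 tested members of the hypoxia list of 30, 10 were called higher (4.86% over all genes) and 0 lower, and the median was 0.34 against 4e-04 over all genes. Fitted with slide as a block 4 passed higher and 1 lower, the heme oxygenase gene Hmox1, which was not called without the block. Among FABP4 arrays of slide 2, 9 were called higher (2.76% over all genes) and 0 lower (0.572%). Bnip3, which marks mitochondria for autophagy, was at 3385, 3448 and 4112 in controls and 8535, 7123 and 8443 with palmitic acid (1.14 ± 0.11, adjusted p = 6.74e-04). Its 2 other probes gave 1.01 and 1.06, and its relative Bnip3l rose by 0.39 ± 0.06. Ndrg1, a stress-response gene, went from 7495, 8225 and 8555 to 13680, 13250 and 14090 (0.76 ± 0.06). The clock and hypoxia repressor Bhlhe40 went from 387.8, 414.7 and 421.5 to 611.3, 612.2 and 637 (0.60 ± 0.05). Selenbp1, which encodes a selenium-binding methanethiol oxidase, rose by 0.83 ± 0.09 and the vessel growth factor Vegfa by 0.41 ± 0.06.

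Adm, which encodes the vasodilator adrenomedullin, was dim in controls, at 22.78, 26.57 and 27.98 with 2 of 3 arrays well above background, and reached 91.63, 78.69 and 87.52 (1.74 ± 0.20, adjusted p = 0.00141). The other called members were Ankrd37, the disulfide-forming oxidase gene Ero1a (0.58 ± 0.12) and the carbonic anhydrase gene Car12 (0.57 ± 0.15). The call of Ankrd37 ended without control array 1 (adjusted p = 0.0522). That of Ero1a ended without control arrays 1 and 2 and palmitic acid arrays 1 and 3, at most at 0.0581, and that of Car12 held only without control array 2, FABP4 arrays 1 and 3 and array 3 with palmitic acid and FABP4, with 0.134 at most elsewhere. Genes of the oxygen sensor itself were not called: Hif1a had 0.05 ± 0.10, Epas1 -0.01 ± 0.06 and Vhl 0.01 ± 0.07. P4ha2, a collagen prolyl hydroxylase gene, was not well above background on any control array, at 6.277, 5.462 and 4.656, and was at 45.26, 44.66 and 33.32 with palmitic acid. FABP4 array 3 read 206.6 for it beside 9.303 and 5.053 on FABP4 arrays 1 and 2, and it was not called (adjusted p = 0.112).

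The letters ACGTG form the core of the site that HIF factors bind. Of the called hypoxia genes, 7 have an entry in a RefSeq promoter table of build GRCm38.p6, and 5 of them (71.4%) hold this core within the 250 bases before their start on either strand: Bnip3, Selenbp1, Vegfa, Ankrd37 and Ero1a. Over all 27025 genes with an entry the share was 18.5%, and over the 9677 tested genes with one it was 24.5%. The core is also found before Hilpda, and before 3 of the 5 called glycolysis genes and 3 of the 4 called ATF4-response genes. Stretches around the match are printed 5′ to 3′ on the gene's strand to show where the shared letters lie, with capitals for the match, which reads CACGT where it is on the other strand. In Bnip3 the matches on both strands overlap.

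Bnip3, chr7:138909570-138909629, minus strand: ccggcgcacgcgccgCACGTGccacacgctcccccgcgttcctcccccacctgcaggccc
Ero1a, chr14:45318591-45318650, minus strand: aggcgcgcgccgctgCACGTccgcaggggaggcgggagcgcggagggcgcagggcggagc
Selenbp1, chr3:94932864-94932923, plus strand: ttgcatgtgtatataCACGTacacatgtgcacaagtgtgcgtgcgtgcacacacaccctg
Hilpda, chr6:29272568-29272625, plus strand: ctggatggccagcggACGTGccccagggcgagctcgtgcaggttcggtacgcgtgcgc

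**Figure D2:**
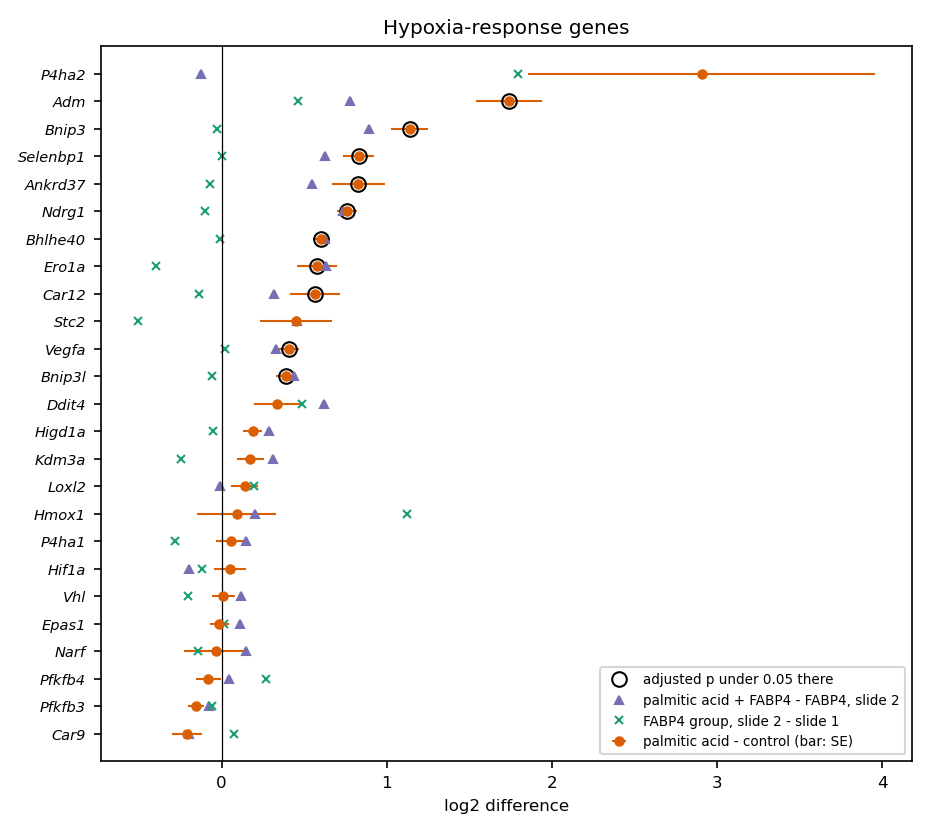
Log2 difference for each of the 25 tested hypoxia-response genes: palmitic acid minus control with its SE, the same contrast among FABP4 arrays of slide 2, and the slide difference in the FABP4 group; circles mark adjusted p under 0.05 in the main comparison. Most called genes have triangles to the right of 0 near their points and crosses near or left of 0, while Adm and P4ha2 have crosses at 0.46 and 1.80.

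Glycolysis genes, which overlap the hypoxia program in function, gave 5 rises and 0 falls among 27 tested (18.5% called, all genes 8.58%, median 0.08). The block fit called 1 of them, and 7 genes were called within slide 2. Eno2, an enolase usually found in neurons, went from 606.7, 657.6 and 701.9 to 1275, 1150 and 1353 (0.94 ± 0.10, adjusted p = 0.00117). The myeloid hexokinase gene Hk3 rose by 0.56 ± 0.05 and the phosphoglucomutase gene Pgm1 by 0.46 ± 0.07. The lactate exporter gene Slc16a3 (0.37 ± 0.07) and Pfkl (0.43 ± 0.10) were also called. The call of Slc16a3 ended without control arrays 1 and 2 and palmitic acid arrays 2 and 3, and that of Pfkl without each control array and palmitic acid arrays 1 and 2, at most at adjusted p = 0.0641 and 0.0981. The abundant enzymes of the pathway were not called: Ldha had 0.11, Pgk1 0.16, Gapdh 0.01 and the glucose carrier Slc2a1 0.06. The list's count was 3 without control array 1 or 2 or palmitic acid array 2, and 9 without FABP4 array 1.

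Some genes of secreted and membrane-bound growth factors were also higher. Of 26 tested, 10 were called higher and 1 lower (42.3% called, all genes 8.58%, median 0.13). The fit with slide as a block called 2 of them, and within slide 2 the count was 8 higher and 1 lower. Hbegf, which encodes a ligand of the EGF receptor, was at 279.8, 273.9 and 277.6 in controls and 569.5, 518.5 and 573.5 with palmitic acid, a doubling with no overlap (1.00 ± 0.07, adjusted p = 1.54e-04). The stress cytokine gene Gdf15 went from 114.4, 101.2 and 135.2 to 192.7, 184.9 and 219.7 (0.77 ± 0.13, adjusted p = 0.00705). Csf3, which encodes the granulocyte factor G-CSF, was already bright and rose by 0.31 ± 0.06, whereas Csf2, the gene for GM-CSF, fell from 1170, 1273 and 1184 to 802.7, 815.2 and 791.3 (-0.59 ± 0.07, adjusted p = 0.00125). Inhba, the activin A subunit gene, was not well above background on any control array and rose at least 1.36-fold. Lrrc32, Adm and Vegfa, described above, and Igf1, Csf1 and Osm at 0.23, 0.27 and 0.37 were the other rises. The 2 other probes of Csf1 gave 0.07 and -0.18, so that its probes disagree. The call of Inhba, whose measured group means were 15.79 and 33.44, ended without control array 1 and palmitic acid arrays 2 and 3, at most at adjusted p = 0.0664. Those of Igf1 and Csf1 ended without each control array and palmitic acid arrays 2 and 3, at most at 0.0761 and 0.104. That of Osm held only without FABP4 arrays 1 and 3, palmitic acid array 2 and array 3 with palmitic acid and FABP4, with 0.123 at most elsewhere. The list's count of 11 became 7 without control array 1 or palmitic acid array 3.

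Some fatty acid synthesis genes were lower. Of 18 tested, 5 were called lower and 0 higher (27.8% called, all genes 8.58%, median -0.09). All 5 passed whichever array was left out. The fit with slide as a block called 1, and 3 were called within slide 2. Acaca, which makes malonyl-CoA, went from 3574, 3653 and 3741 to 2338, 2417 and 2401, and its 3 other probes gave -0.67, -0.63 and -0.64 beside -0.62 ± 0.05. Malonyl-CoA is both the building block of fatty acid synthesis and the inhibitor of CPT1A. Elovl6, which lengthens palmitate to stearate, fell from 210.2, 212.4 and 206.4 to 130.8, 134.1 and 124.4 (-0.69 ± 0.12, adjusted p = 0.00794). Its slide difference was -0.36. It had -0.34 with slide as a block and -0.44 within slide 2, and was called in neither (limma adjusted p = 0.406 and 0.0611). Fasn and the desaturase gene Scd2 fell by 0.74 and 0.68 on the log2 scale, and Acss2, which activates acetate, by 0.36. The other probe of Acss2 gave 0.23 ± 0.09, in the opposite direction, and its value within slide 2 was -0.03.

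Palmitate feeds the first step of sphingolipid synthesis. Of 26 tested genes of this pathway 5 were called (19.2%, all genes 8.58%), with 1 passing with slide as a block. Sphk1, which makes sphingosine 1-phosphate, went from 335.6, 331.4 and 359.2 to 666.5, 583.8 and 688.2 (0.91 ± 0.07, adjusted p = 1.57e-04), and its other probe gave 0.87. The ceramide synthase genes Cers4 and Cers5 fell by 0.62 and 0.27 on the log2 scale, Cers4 from 520.5, 597.5 and 515.2 to 331.9, 371.5 and 358.6. Cers4 had -0.57 with slide as a block and -0.27 within slide 2, and was called in neither (limma adjusted p = 0.0814 and 0.101). Ormdl3, a brake on the first enzyme, had 0.23 ± 0.05. The call of Ormdl3 ended without control arrays 2 and 3 and palmitic acid arrays 2 and 3, at most at adjusted p = 0.0738. The pathway's count was 3 without any 1 of these 4 arrays. The genes of the first enzyme, Sptlc1 and Sptlc2, had -0.12 ± 0.08 and 0.15 ± 0.10 and were not called.

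Some genes of stress in the endoplasmic reticulum were called in the main comparison. Of 24 tested genes of the unfolded protein response 3 rose and 0 fell (12.5% called, median 0.05). Of 26 ATF4-response genes 4 rose and 0 fell (15.4% called, median 0.03), and the share over all genes was 8.58%. Within slide 2 the counts were 8 higher and 0 lower, and 7 higher and 0 lower, where 2.76% of all genes were called higher. Dnajb9, a co-chaperone that silences the sensor IRE1, went from 725.6, 707.9 and 752 to 1192, 1025 and 1135 (0.61 ± 0.07, adjusted p = 0.00132). Atf3, Ppp1r15a and the amino acid carrier subunit gene Slc3a2 rose by 0.56, 0.57 and 0.47, and these 3 and Gdf15 passed whichever array was left out. The chaperone gene Hspa5 (BiP) had 0.21 ± 0.05 and Creld2 0.20 ± 0.05. The call of Hspa5 ended without each control array and palmitic acid arrays 1 and 3, at most at adjusted p = 0.0918. That of Creld2 held only without single FABP4 arrays and array 3 with palmitic acid and FABP4, with 0.119 at most elsewhere. The unfolded protein list thus had 1 call without any 1 of the control arrays or palmitic acid array 1 or 3, and each of the 2 lists had 1 with slide as a block. The endoplasmic reticulum stress element, CCAAT and CCACG with any 9 bases between them on either strand, lies within 250 bases before the start of 35 of the 27025 genes with a promoter entry (0.13%), and before Hspa5 and Creld2 among the 3 called genes of this response. Both stretches are printed with the match in capitals, which is on the other strand in Creld2.

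Hspa5, chr2:34772010-34772069, plus strand: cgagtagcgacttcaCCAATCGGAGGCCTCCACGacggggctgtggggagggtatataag
Creld2, chr15:88819505-88819564, plus strand: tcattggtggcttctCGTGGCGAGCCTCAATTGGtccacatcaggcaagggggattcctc

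Genes of osteoclasts, the bone-resorbing relatives of macrophages, were split. Of 17 tested members, 7 were called higher and 3 lower (58.8% called, all genes 8.58%, median 0.12). Without any 1 of the control arrays, or without palmitic acid array 2 or 3, 6 were called in all. The fit with slide as a block called 1, and within slide 2, 6 were called higher and 1 lower. Dcstamp, needed for cell fusion, went from 2023, 2184 and 2056 to 3437, 3580 and 3366 (0.73 ± 0.06, adjusted p = 2.21e-04), and its relative Ocstamp rose by 0.48 ± 0.08. Genes of acid secretion rose too: the carbonic anhydrase gene Car2 by 0.50 ± 0.06, the proton pump subunit gene Atp6v0d2 by 0.56 ± 0.08 and the chloride channel gene Clcn7 by 0.38 ± 0.06. The master regulator gene Nfatc1 and the protease gene Mmp9 were lower, by 0.54 ± 0.12 and 0.51 ± 0.12 on the log2 scale. Both calls ended without control arrays 2 and 3 and palmitic acid arrays 2 and 3, that of Nfatc1 also without control array 1 and that of Mmp9 without palmitic acid array 1, at most at adjusted p = 0.0770 and 0.0954. The receptor gene Tnfrsf11a had -0.20 ± 0.08 and the marker enzyme gene Acp5 0.12 ± 0.09, and neither was called.

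Some receptors that guide macrophages were lower. Of 14 tested chemoattractant receptor genes 4 were called lower and 1 higher (35.7% called, all genes 8.58%, median -0.23). Within slide 2 the median was 0, with 7 genes above and 7 below 0, 3 called lower and 1 higher. The slide difference in the FABP4 group was below 0 in 11 of the 14 (median -0.13), and the median with slide as a block was -0.07. Fpr1, a receptor for bacterial formyl peptides, went from 437.6, 461.1 and 425.5 to 265.3, 254 and 292.6 (-0.71 ± 0.09, adjusted p = 0.00193), and Fpr2 fell by 0.45 ± 0.08. The fractalkine receptor gene Cx3cr1 fell from 2236, 2160 and 2232 to 1328, 1389 and 1569 (-0.63 ± 0.07), and its other probe gave -0.69. C5ar1 had -0.29 ± 0.08 and the scavenging receptor gene Ccrl2 0.33 ± 0.06. The call of Ccrl2 ended without control array 3 (adjusted p = 0.0507) and that of C5ar1 held only without FABP4 array 1 and palmitic acid array 2, with 0.159 at most elsewhere. Of these receptors 3 were called without control array 3 and 1 with slide as a block. The prostaglandin E2 receptor gene Ptger2 fell from 728.4, 692.7 and 744.7 to 416, 343.6 and 467.2 (-0.83 ± 0.10), and the adhesion integrin gene Itgal by 0.51 ± 0.07 on the log2 scale.

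Inflammatory genes did not rise as a group. Of 33 tested genes of the NF-kB response 1 rose and 6 fell (21.2% called, all genes 8.58%, median -0.09). With slide as a block limma called 0 of the 33, with 7 at an unadjusted p under 0.05. Over all genes tested 2664 of 17662 had such a p in that fit. Lcn2, an iron-withholding protein gene, fell from 41960, 42450 and 41240 to 28590, 32620 and 30260 (-0.46 ± 0.06, adjusted p = 0.00411). The cytokine genes Tnf, Il1b and Il6 had -0.17 ± 0.06, -0.18 ± 0.05 and 0.01 ± 0.10, and Nos2 had 0.08 ± 0.06, all without a call. Of 38 tested interferon-response genes 3 rose and 0 fell, a share (7.89%) near the 8.58% over all genes. Among them was Ifnb1 (0.44 ± 0.07) at 369.8, 391.2 and 357.5 in controls and 556.8, 474.2 and 490 with palmitic acid. That count was 1 without control array 1 or palmitic acid array 2, and 5 without FABP4 array 1. Among 26 tested immediate-early and MAPK genes 4 rose and 4 fell (30.8% called). The phosphatase genes Dusp2 and Dusp6, which switch off ERK, fell by 0.46 and 0.44 on the log2 scale, whereas their relative Dusp4 rose by 0.32 ± 0.07. The call of Dusp4 ended without control array 2 and palmitic acid array 3, at most at adjusted p = 0.0544. That list's count was 3, 2 and 3 without control arrays 1, 2 and 3, 5, 5 and 3 without palmitic acid arrays 1, 2 and 3, and as high as 12 when FABP4 array 1 was left out. The replicate number as a block gave 5 calls, and limma with slide as a block gave 0, with 5 at an unadjusted p under 0.05.

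Cell cycle genes were lower in the palmitic acid arrays, and in most of them slide 2 was also lower than slide 1 without palmitic acid. Of 39 tested, 16 were called lower and 0 higher (41% called, all genes 8.58%, median -0.21). Ccna2, cyclin A2, went from 1036, 934.6 and 980.9 to 714, 721.9 and 696.2 (-0.47 ± 0.07, adjusted p = 0.00539). The mitotic kinase gene Plk1 went from 3983, 3970 and 4100 to 2640, 3220 and 3169 (-0.42 ± 0.07), and E2f2 from 934.8, 929.7 and 944.1 to 652.3, 614 and 713. The slide difference in the FABP4 group was below 0 in 34 of the 39 genes, with a median of -0.14 against -0.05 over all genes. With slide as a block limma called 0 of the 39 (median -0.06 against 0.04 over all genes). At an unadjusted p under 0.05 there were 10 in that fit, against 2664 of all 17662 genes. Among FABP4 arrays of slide 2 the palmitic acid effect had a median of -0.08 against 0.06 over all genes, with 1 fall called, Ccnb1 at -0.24. Replication helicase genes such as Mcm2 and Mcm3 lay at -0.03 and -0.04 in the main comparison. The count was 9 without control array 1 or 3, 10 without palmitic acid array 2 and 21 without FABP4 array 1, and with unscaled arrays 1 was called higher and 2 lower, in a run of this list added once the data had been seen.

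**Figure D3:**
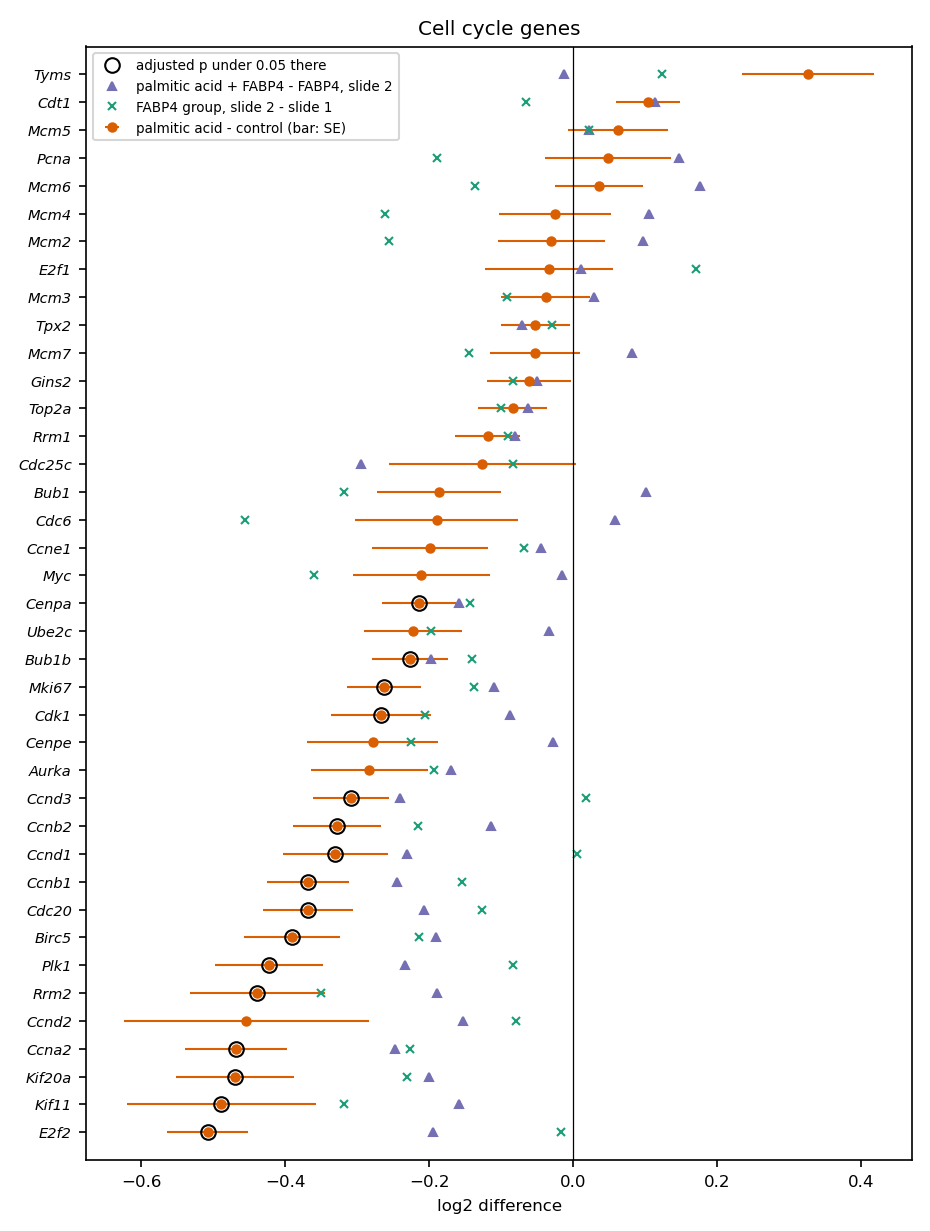
Log2 difference for each of the 39 tested cell cycle genes: palmitic acid minus control with its SE, the same contrast among FABP4 arrays of slide 2, and the slide difference in the FABP4 group; circles mark adjusted p under 0.05 in the main comparison. The 16 called genes lie left of 0, and most of their crosses, which compare slides without palmitic acid, lie left of 0 as well.

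Genes of basic cell machinery showed no calls. Among 157 tested genes of oxidative phosphorylation, ribosomal proteins, mitochondrial ribosomes, tRNA synthetases and the proteasome limma called 0, with 7 (4.46%) at an unadjusted p under 0.05 against 26.5% of all genes tested. Their log2 values lay between -0.36 and 0.14. Leaving out FABP4 array 1 gave 1 call among the tRNA synthetase genes. These are 5 of the 9 lists with no call and were put together on that ground, so the 0 follows from the choice. Within slide 2 all 38 ribosomal protein genes, 29 of 31 oxidative phosphorylation genes and 29 of 31 proteasome genes lay above 0. There 21 of 34 mitochondrial ribosome and 12 of 23 tRNA synthetase genes did so, and 1 proteasome gene was called higher.

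**Figure D4:**
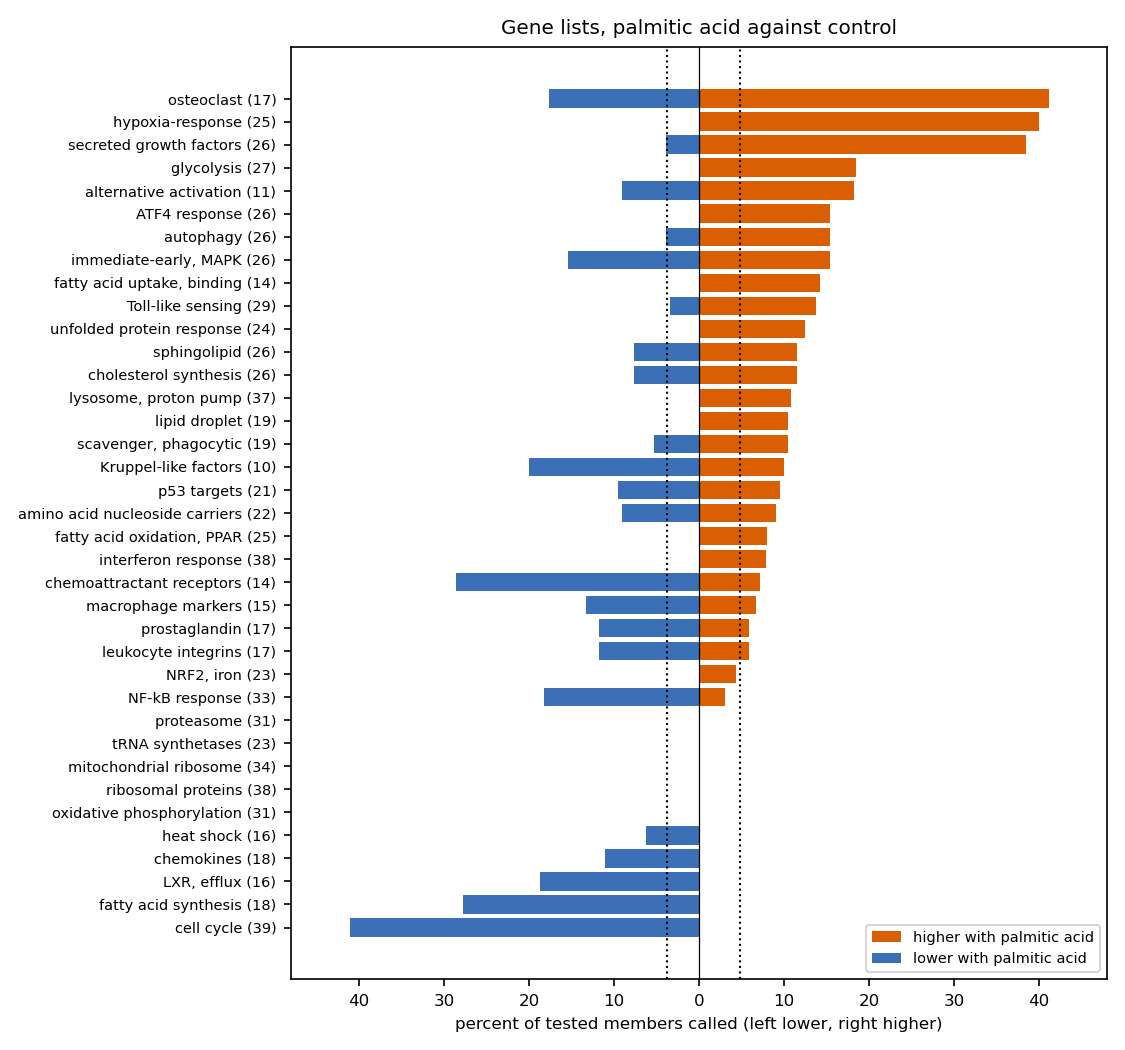
Percent of tested members called higher (right) and lower (left) in each gene list with at least 10 tested members, whose number stands in brackets; dotted lines give the shares over all genes, 4.86% higher and 3.73% lower. Osteoclast, hypoxia-response and secreted growth factor lists reach furthest to the right, cell cycle, chemoattractant receptor and fatty acid synthesis lists furthest to the left, and 5 lists of basic machinery have no bar.

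The same contrast in arrays that share none of these 6, palmitic acid with FABP4 against FABP4 on slide 2, called 588 genes (3.33%), 487 higher (2.76%) and 101 lower (0.572%). Of the 858 genes higher with palmitic acid alone 785 (91.5%) had the same sign there and 268 were called, and of the 658 lower ones 552 (83.9%) had the same sign and 80 were called. None of the 1516 was called in the opposite direction. The spread behind the calls within slide 2 was estimated over all 12 arrays, which include the 6 of the main comparison. Over all genes tested the sign was shared by 60.6%. The interaction between palmitic acid and FABP4 called 0 genes by limma, with 1221 (6.91%) at an unadjusted p under 0.05 and 37 called with slide as a block. Where FABP4 was present, Dok7 had 1.89, Lrrc32 1.59, Plin2 1.40, Cpt1a 1.49, Bnip3 0.90, Sphk1 0.70 and Hbegf 1.16, and Pilra -0.92, Abca1 -0.77 and Fgr -0.50.

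The largest changes shared this sign least often. Of the 72 genes called with a change above 1 (69 higher, 0.391% of the genes tested, and 3 lower, 0.017%), 50 (69.4%) had the same sign among FABP4 arrays of slide 2, against 90.7% of the 827 genes between 0.25 and 0.5. These 72 genes were dim: 59 had a control mean under 100 units and their median was 29.2, against 548 over all genes. For 22 of them no control array was well above background. In 58 (80.6%) the slide difference in the FABP4 group ran in the same direction, with a median of 0.49. Fbxw13, an F-box protein gene, read 56.67, 37.46 and 36.22 in controls and 81.06, 201 and 109.7 with palmitic acid (1.51 ± 0.37, adjusted p = 0.0324). Its slide difference was 0.99 and its value within slide 2 was -0.07. Car14, a carbonic anhydrase gene, read 65.99, 56.85 and 51.4 against 235.3, 116.9 and 105.7, with a slide difference of 1.02 and 0.24 within slide 2. Vwf, the von Willebrand factor gene, read 74.75, 263.9 and 93.17 with palmitic acid, so that array 2 stood apart. The calls of Fbxw13, Car14 and Vwf ended without any 1 of the control arrays, at most at adjusted p = 0.104, 0.110 and 0.0790. That of Fbxw13 ended also without palmitic acid arrays 2 and 3, and that of Car14 without palmitic acid arrays 1 and 2 and each array with both agents.

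**Figure D5:**
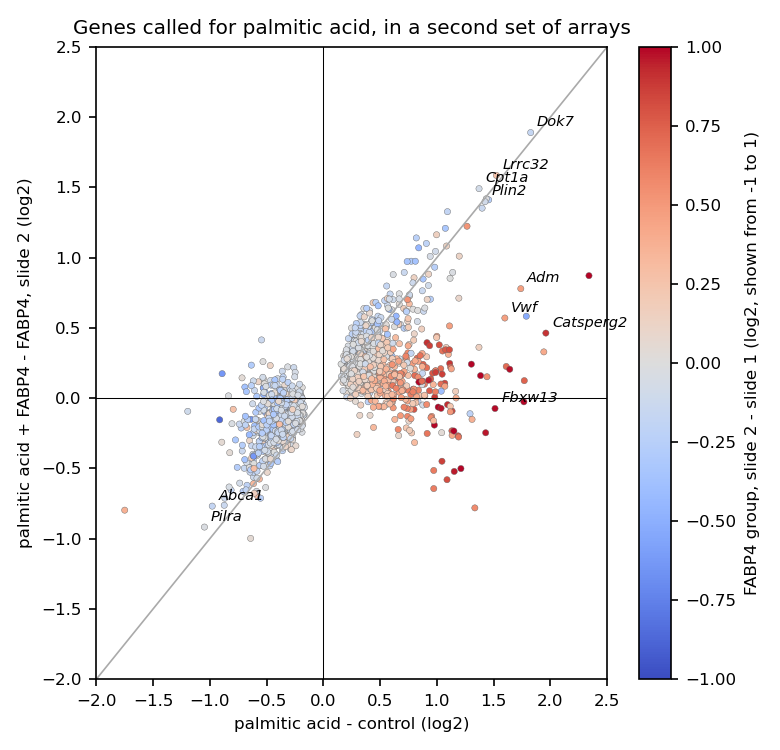
Log2 difference of palmitic acid minus control (horizontal) against palmitic acid with FABP4 minus FABP4 on slide 2 (vertical) for the 1516 genes called in the first, coloured by the slide difference in the FABP4 group; the grey line marks equal values. Dok7, Lrrc32, Plin2, Cpt1a, Abca1 and Pilra lie along the line, and many rises above 1 lie near the horizontal axis in red, with a slide difference above 0.

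With slide as a fixed block 137 genes passed (0.776%), 77 higher (0.436%) and 60 lower (0.34%), and 77 of the 137 were among the 1516 with the same sign. A total of 75 genes passed in the main comparison, with slide as a block and within slide 2, all with 1 sign, 62 higher and 13 lower. Their median control intensity was 823 and the lowest 45.1, with 8 of the 75 under 100 units. Of the 75 entries 69 have an official symbol. The entry TC1715571, among the lower ones, has a probe that overlaps that of Cx3cr1, so this place is counted more than once. The 3 fits are not separate checks, as the block and the contrast within slide 2 both use FABP4 arrays 2 and 3. In 16 of the 75 genes the slide difference in the FABP4 group had the sign of the effect. These genes were picked after their values were seen, so their number is a description. Besides Dok7, Lrrc32, Gm13889, the lipid genes, Bnip3, Ndrg1, Bhlhe40, Ero1a, Hk3, Hbegf, Sphk1, Dcstamp, Dnajb9 and Atf3, they hold genes of signalling at the cell surface. Gprc5a, an orphan receptor gene, went from 753.3, 807.9 and 782.1 to 1357, 1634 and 1477 (0.93 ± 0.07). Il7r, the interleukin 7 receptor gene, went from 515.7, 556.7 and 470.2 to 999.6, 888.1 and 945.4 (0.88 ± 0.11). Procr, the receptor gene for protein C, went from 4773, 5280 and 5219 to 7955, 8292 and 8007 (0.67 ± 0.05).

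Trem2, a lipid-sensing receptor gene of macrophages, went from 6364, 6469 and 6578 to 8579, 9223 and 9440 (0.49 ± 0.06). Rgs1 and Rgs2, whose proteins shorten signalling through G proteins, rose by 0.81 ± 0.10 and 0.46 ± 0.07, Rgs1 from 7400, 6640 and 6438 to 12310, 11260 and 12320. Plk2, a stress-induced kinase gene that is also a p53 target, went from 1299, 1114 and 1144 to 2250, 2085 and 2332 (0.91 ± 0.08). Mdm2, the gene for the p53 ubiquitin ligase, rose by 0.38 ± 0.06. Of 21 tested p53 targets 2 rose and 2 fell (19% called, all genes 8.58%). Of these targets 2 were called without control array 1 or 3 or palmitic acid array 1 or 2. H1f2, a linker histone gene, and Tent5c, which encodes a poly(A) polymerase, rose by 0.93 ± 0.06 and 1.08 ± 0.11. On the lower side stood Pilra, Abca1, Abcg1, Fgr, Nfatc2, Cx3cr1, Acaca and Asxl1, a chromatin regulator gene that fell from 1343, 1306 and 1325 to 837.2, 855.8 and 872.8. The genes named one by one here, from Trem2 to Asxl1, passed whichever array was left out.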

How the data were processed

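RNA from 12 samples was hybridised in 1 colour to 12 Agilent arrays on 2 slides. Processed spot intensities were written by Agilent Feature Extraction 10.7.3.1 per the file headers and were used as deposited, with control spots and outlier-flagged spots left out, which left 10 missing values in the genes tested. The authors' deposited value table holds the same intensities within 0.005, on a linear scale and uncentred.

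Here log2 intensities were computed from the deposited values, and each array's 75th percentile was subtracted. A probe was kept if well above background on all 3 arrays of a group (23899 of 55681 probes), and the brightest kept probe stood for a gene. Of the probes, 48.91% were given a symbol through a match of their accession to a gene reference, and 12214 of the genes tested have an official symbol. All p-values come from limma 3.58.1 in R 4.3.3 (lmFit and eBayes on 4 group means, Benjamini-Hochberg adjustment over 17662 genes), except where a block is named. Genes with a missing value on an array were fitted without that value. In simulated data for palmitic acid against control on 17652 genes, 57% of changes of 0.5 and 83% of changes of 1 (log2) were recovered, and 10 unchanged genes were called. The simulation had 100 changed genes of each size and no slide effect, so these rates do not cover a difference between slides.

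The comparison and the gene lists were chosen with earlier results of these data known. Named genes were the largest rises and falls with an official symbol and no overlap, up to 4 called members with the smallest p in each list, the smallest p with slide as a block, and members described for their role. Gprc5a, Il7r, Procr, Trem2, Rgs1, Rgs2, H1f2, Tent5c, Fbxw13, Car14, Vwf, Hmox1 and Slc38a2, and further list members beyond 4, were chosen after their values were seen. A gene not well above background on any control array has only a bound, the palmitic acid mean over the control mean raised on each array to the lowest signal well above background. Alternatives covered scaling, background correction, the filter, the probe summary, blocks and each array left out. Figures were drawn with matplotlib 3.10.9. Some called list members are not reported here by name.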

Additional observations from a re-analysis of the deposited data

How the results depend on the processing

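Of the settings tried, these moved the 1516 calls by more than 1.5 times: 501 without a filter on dim probes, 137 with slide as a fixed block, 182 with slide as a random block, 10 with a minimum log2 change of 0.5, and 3060 without scaling. Leaving out 1 array gave 652 to 2716. The interaction gave 37 calls with slide as a block. Quantile normalization gave 1825 calls, normexp background 1568 and the 6 arrays alone 1419. With the replicate number as a block 1336 were called, and same-numbered control and palmitic acid arrays correlated by 0.01, 0.05 and -0.07, so the numbers were not taken to pair the samples. Of 204 called genes followed, none reversed under these settings except Stard4, at -0.09 with the mean of its probes. The cause of these shifts was not tested. Gene lists under the median, detected-probe, unscaled and normexp settings were run in addition, a choice made after the data had been seen. They gave 8, 12 and 8 calls for glycolysis in the detected-probe, unscaled and normexp settings, where 5 were called in the main comparison. Dim probes limit the large changes: 59 of 72 had a control mean under 100 units.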

Other observations

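A few further genes of lipid handling and degradation were called, against 8.58% of all genes tested. Fabp3, which encodes a fatty acid binding protein of muscle, went from 2526, 2595 and 2768 in controls to 3664, 3792 and 4018 with palmitic acid (0.54 ± 0.07). Of 26 tested genes of cholesterol synthesis and its control 3 were higher and 2 lower, and 2 or 3 of these 5 were called without control array 1, 2 or 3 or palmitic acid array 2 or 3. Of 37 tested lysosome genes 4 rose and 0 fell (10.8% called, near the share over all genes). The clearest was Gpnmb, a lysosomal membrane glycoprotein gene, at 15410, 16160 and 15910 against 22090, 23690 and 22530 (0.52 ± 0.05). Only 1 or 2 of these 4 were called without control array 1 or 3, FABP4 array 2, any 1 of the palmitic acid arrays or any 1 of the arrays with both agents, and the call of Gpnmb was always among them.

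Of 26 tested autophagy genes 4 rose and 1 fell, and 3 of these 5 were called without control array 1 or 2 or any 1 of the palmitic acid arrays. Atg13, part of the kinase complex that starts autophagy, rose by 0.35 ± 0.05, and Sqstm1, the gene of a cargo receptor, by 0.31 ± 0.06. Among 22 tested carriers of amino acids and nucleosides 2 rose and 2 fell (2 calls in all without control array 3), and Slc1a4, a carrier of neutral amino acids, went from 9696, 10800 and 9673 to 13820, 12630 and 14040 (0.42 ± 0.06). Klf7, a zinc finger transcription factor gene, went from 5279, 4887 and 5236 to 3507, 3851 and 3877 (-0.46 ± 0.06).

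With slide as a block limma called 0 genes of the cholesterol, lysosome and autophagy lists. At an unadjusted p under 0.05 there were 11 of 26, 11 of 37 and 8 of 26, against 2664 of all 17662 genes. The block fit called 1 carrier gene, Slc38a2, which is not among the 4 called without the block.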
